A study of Mus musculus with 6 samples.

Results

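The Hox genes are the 39 genes of the A, B, C and D clusters that the deposited transcript tables list with a protein-coding transcript and a symbol of the form Hox, cluster letter and paralogue number, out of 54309 genes listed. Their estimated counts and TPM (an RNA level that allows for transcript length and for depth) were summed over 85 transcripts, 61 of them protein-coding. C57BL/6 mice aged 6 to 8 weeks had the left sciatic nerve cut at mid-thigh (axotomy) under isoflurane, and poly-A RNA was sequenced 24 h later from the proximal stump, the piece that runs to the dorsal root ganglia. There were 3 libraries from females and 3 from males, each made from the pooled nerves of 2 mice, so that 6 animals stand behind each sex. The labels name no transgene or drug treatment, and both groups had the axotomy. The study also had sham-operated nerve of each sex and asked how the response to the cut differs between the sexes. Sham nerve was not analysed here, and nothing below measures an effect of the cut. A sex difference already present without the cut cannot be told apart from one that followed it. P-values measure the spread between pools of animals.

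Hox genes encode transcription factors that bind DNA through a homeodomain, and they lie in 4 clusters in which gene order matches the order of their expression domains along the body axis. Genes with low paralogue numbers are active from the hindbrain downwards and those with high numbers in the lumbar, sacral and tail region. In the developing limb the group 9 and 10 genes pattern the upper segment, group 11 the middle segment and group 13 the hand or foot. Fibroblasts and other cells of the adult body keep a Hox pattern that reflects where in the embryo they arose, and sensory, motor and glial cells of the spinal levels carry their own.

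The homeobox, the stretch of coding bases behind the homeodomain, shows where paralogues differ and where they are alike. The last 60 of its 180 bases, which include the recognition helix, are printed for paralogue group 8, since Hoxb8 was 1 of the Hox genes that passed the sex test. They were read from GENCODE M39 transcripts (assembly GRCm39) 5′ to 3′ on the coding strand, and capitals mark bases that differ from Hoxb8.
Hoxb8 (chr11:96175120-96175179, plus strand): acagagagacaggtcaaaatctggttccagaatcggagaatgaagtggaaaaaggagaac
Hoxc8 (chr15:102901123-102901182, plus strand): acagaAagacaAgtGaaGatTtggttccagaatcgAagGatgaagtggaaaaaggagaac
Hoxd8 (chr2:74536989-74537048, plus strand): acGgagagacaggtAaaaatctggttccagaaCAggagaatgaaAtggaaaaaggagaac

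Over the whole homeobox, Hoxc8 differed from Hoxb8 at 36 of 180 bases and Hoxd8 at 35. Across the 39 genes the median identity of the homeobox bases was 80.6% within a paralogue group (42 pairs, 67.2 to 93.9%) and 60.6% between groups. Reads from such alike stretches can be exchanged between genes by the quantification. Of 741 pairs of Hox genes, 24 shared at least 1 exact run of 31 bases somewhere in their M39 transcripts. Hoxb8 shared 2 such runs, with Hoxd8, and Hoxb5 shared none. The search covered Hox genes alone and M39 models, which do not all match the deposited files in length. It thus cannot show which reads were exchangeable in these counts. Hoxd3 and Hoxd4 shared 358 and Hoxc5 and Hoxc10 shared 138, so by this measure the counts of these pairs are the least certain. In each of these pairs the genes overlap on the plus strand of their chromosome. Their homeoboxes were 68.3% identical for Hoxd3 and Hoxd4 and 60% for Hoxc5 and Hoxc10.

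The estimated counts came to between 49158283 and 69848769 per library, of which the Hox genes held 4119 to 6315. Floors and limits below cover counting error only, and 3 counts, the upper limit that a count of 0 allows, correspond to 0.0429 to 0.0610 CPM, counts scaled to library size. Sex-linked genes were higher in the labelled sex in every library, but some libraries held reads of the other sex's genes. Female 3 held 139 counts of the Y-linked Ddx3y and 147 of Eif2s3y, against 0 in females 1 and 2, and male 1 held 193 counts of Xist, against 6 and 16 in males 2 and 3. The Y-linked Kdm5d held 43.0, 50.6 and 83.5 counts in females 1 to 3, against 944 to 1209 in males. Females 1 and 2 thus had counts of Kdm5d alone among these Y-linked genes, and the source of those counts was not tested. Calls between the sexes are therefore also given without single libraries. Without female 1 only 1 gene of all passed the threshold used below, and without male 3 only 7 did. A call lost in these fits is thus not particular to the gene. Schwann cell markers such as Mbp and Pmp22 were abundant in every library, with summed levels of 22552 to 30067 CPM in females and 52412 to 62053 CPM in males.

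Hox RNA was low in absolute terms but present in all 4 clusters. The summed TPM of the Hox genes was 71.0 to 87.5. Of the 39 genes, 28 passed the filter on low counts and 20 had a TPM of at least 1 in each of the 6 libraries. The median TPM of the 28 was 2.12, against 8.82 over all 18424 genes that passed, and the highest Hox gene stood at the 48.5th percentile of those genes. Fewer cells of a type and less RNA per cell cannot be told apart in these bulk samples. Levels between genes are compared below as TPM, which accounts for transcript length.

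**Figure D1:**
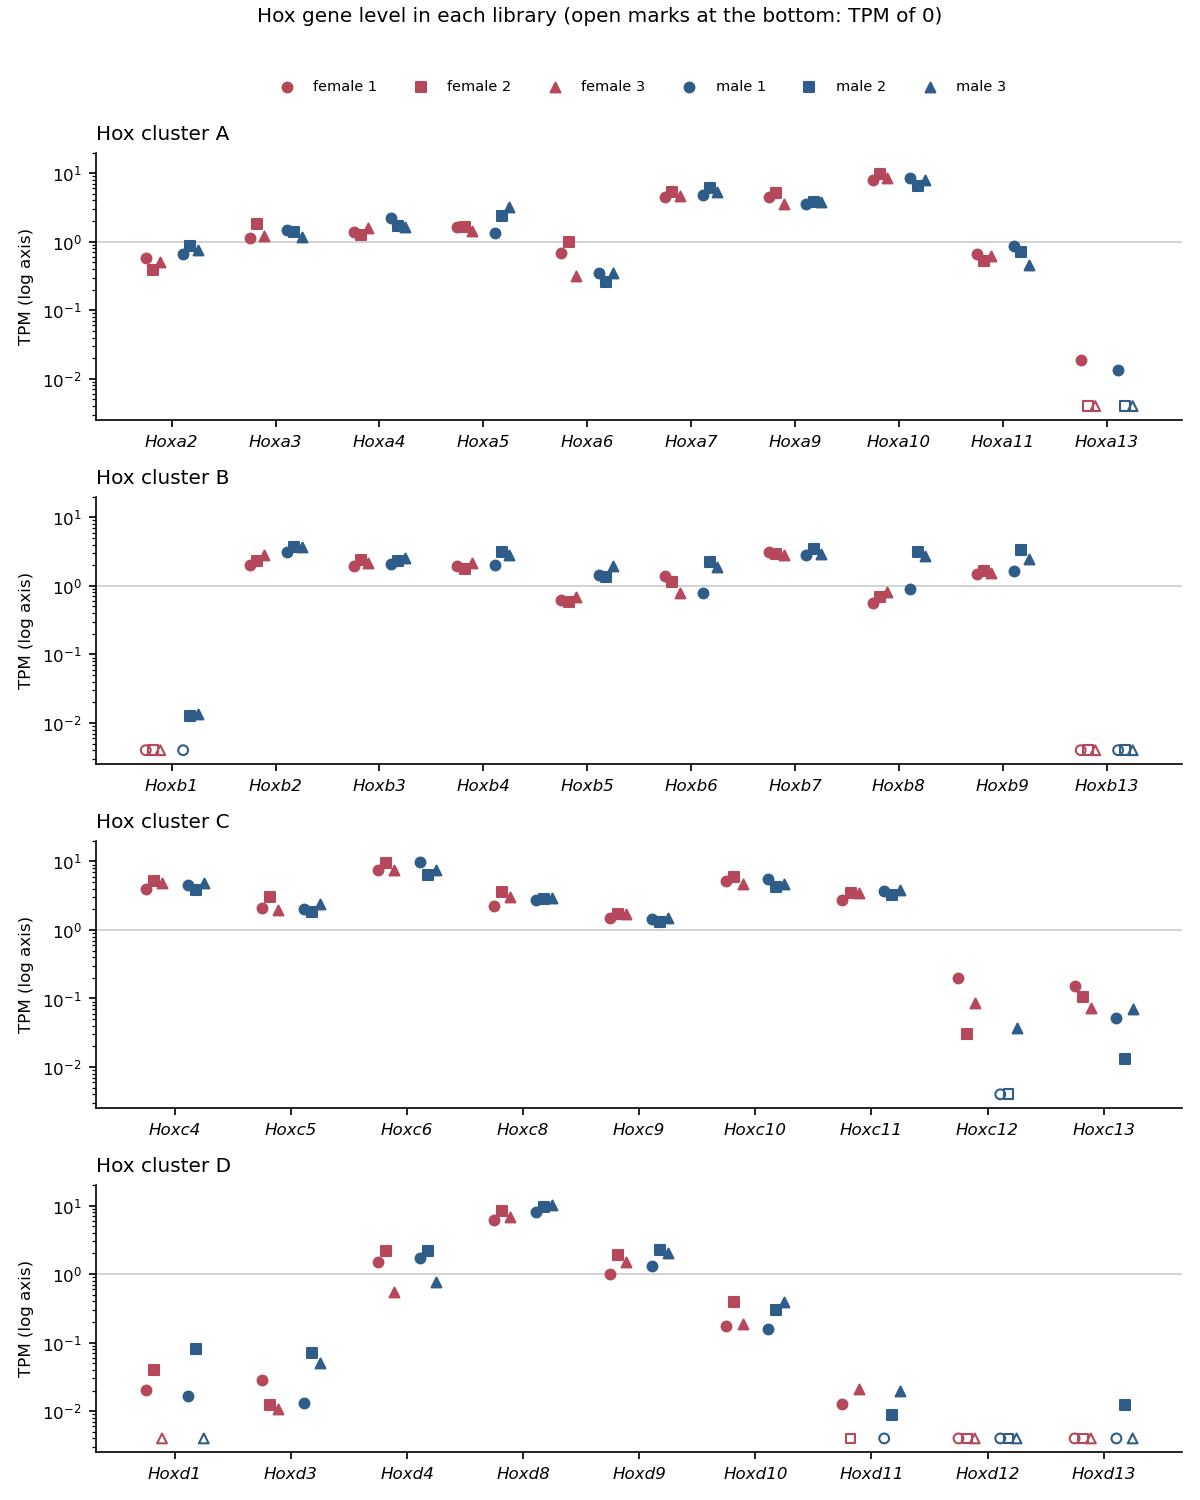
TPM of 38 Hox genes (log axis) in the 3 female and 3 male libraries, 1 panel per cluster, with genes in paralogue order; open marks at the bottom stand for a TPM of 0. Hoxa13, Hoxb1, Hoxb13, Hoxc12, Hoxc13, Hoxd1, Hoxd3 and Hoxd11 to Hoxd13 stay under 0.2 TPM in every library, at the ends of blocks of expressed genes.

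The HoxA cluster, on the minus strand of chromosome 6, was expressed as far as Hoxa11. Hoxa10, 1 of the group 10 genes that together help pattern the upper limb segment, had a TPM of 7.91, 9.86 and 8.49 in females 1 to 3 and 8.46, 6.60 and 7.82 in males 1 to 3. It led the Hox genes in the 3 females, while Hoxc6 led in male 1 and Hoxd8 in males 2 and 3, and their means over the 6 libraries were close (8.19, 8.04 and 8.15). Hoxa7, a gene of trunk levels, stood at 4.55, 5.39 and 4.60 TPM in females and 4.86, 5.99 and 5.25 TPM in males. Hoxa9, which acts at lumbar and upper limb levels, stood at 4.53, 5.16 and 3.50 TPM in females and 3.56, 3.77 and 3.83 TPM in males. All 3 overlapped between the sexes. The anterior genes Hoxa2 to Hoxa5 had mean TPM of 0.624 (Hoxa2) to 1.93 (Hoxa5). Hoxa6 was low between its neighbours, at 0.260 to 0.979 TPM from 7 to 28 counts, and did not pass the filter. The TPM of Hoxa10 was 12.8 times that of the next gene, Hoxa11, which stood at 0.642 ± 0.144 (SD, n = 6), and Hoxa13, the distal limb gene, had 2 counts over the 6 libraries.

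Hoxa10 is listed with 4 transcripts, and only a minority of its TPM came from those that encode protein. The coding share was 46.2, 38.6 and 30.0% in females and 29.7, 33.2 and 37.6% in males. A single transcript annotated as processed had a mean TPM of 5.18, against 1.53 and 1.42 for the coding transcripts. Lower coding shares were also found for Hoxc8 (mean 62.7%), Hoxc6 (68.4%) and Hoxd4 (71.7%). Of 28 Hox genes with a mean TPM of at least 0.3, 13 had a non-coding transcript, and Hoxa10 was the 1 gene whose coding share was under 60%.

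The HoxB cluster, on chromosome 11 (96085106 to 96259082, plus strand), was expressed from Hoxb2 to Hoxb9 with mean TPM between 1.10 (Hoxb5) and 2.99 (Hoxb7). Hoxb7 stood at 3.10, 2.87 and 2.82 TPM in females and 2.81, 3.42 and 2.90 TPM in males. Hoxb2, a hindbrain and neural crest gene, stood at 1.99, 2.28 and 2.86 TPM in females and 3.16, 3.68 and 3.68 TPM in males. Hoxb4 stood at 1.98, 1.79 and 2.18 TPM in females and 2.04, 3.13 and 2.85 TPM in males. Of these 3, the TPM of Hoxb2 did not overlap between the sexes, while its CPM did. At the ends of the cluster, Hoxb1 had 2 counts over the 6 libraries and Hoxb13 had 0.

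The HoxC cluster, on chromosome 15 (102829538 to 102945278, plus strand), was expressed from Hoxc4 to Hoxc11. Hoxc6, a gene of thoracic and limb levels, stood at 7.44, 9.55 and 7.44 TPM in females and 9.92, 6.32 and 7.57 TPM in males. Hoxc10, the group 10 gene of lumbar motor neurons and hindlimb, stood at 5.15, 6.02 and 4.68 TPM in females and 5.47, 4.27 and 4.68 TPM in males. The HoxC genes 10 and 11 are known from hindlimb and not forelimb. Hoxc11 stood at 2.73, 3.52 and 3.43 TPM in females and 3.73, 3.28 and 3.81 TPM in males. Hoxc4 stood at 4.00, 5.16 and 4.91 TPM in females and 4.50, 3.89 and 4.78 TPM in males. Hoxc8, a gene of lower cervical and thoracic levels, stood at 2.26, 3.54 and 3.00 TPM in females and 2.73, 2.81 and 2.90 TPM in males. Each of these 5 genes overlapped between the sexes. The mean TPM of Hoxc11 was 58.3 times that of its neighbour Hoxc12, which had 12 counts in all, and Hoxc13 had 37.

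The transcript model of Hoxc12 bears on that edge. It is 1031 bases long in the deposited files and 3276 bases long in GENCODE M39. Of the 85 Hox transcripts, 82 were found by name in that release and 52 had the same length.

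The HoxD cluster, on chromosome 2 (74498654 to 74595486, plus strand), was expressed over a short central block. Hoxd8 stood at 6.07, 8.37 and 6.70 TPM in females and 7.99, 9.58 and 10.2 TPM in males, with overlap between the sexes. Hoxd4 had a mean TPM of 1.48, Hoxd9 of 1.67 and Hoxd10 of 0.266. Hoxd8 thus stood 5.49 times above Hoxd4 and 4.89 times above Hoxd9. On the anterior side, the TPM of Hoxd4 was 47.9 times that of Hoxd3, and Hoxd1 had 8 counts. The position of this edge is uncertain, since Hoxd3 and Hoxd4 overlap on the plus strand and share 358 exact runs. The quantification may thus have exchanged reads between Hoxd3 and Hoxd4. The TPM of Hoxd4 also varied, from 0.549 to 2.19 over the 6 libraries, which bears on its ratio to Hoxd8 as well. On the posterior side, the TPM of Hoxd10 was 25.6 times that of Hoxd11, Hoxd12 had 0 counts, and Hoxd13 had 1. The genes of group 13 thus had 2, 0, 37 and 1 counts over the 6 libraries for Hoxa13, Hoxb13, Hoxc13 and Hoxd13.

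The 100 bases before the start of Hoxb8, Hoxd8 and Hoxd13 are printed as examples of a promoter of a gene called between the sexes, of an abundant gene and of a gene near 0. They come from RefSeq (GRCm38.p6), 5′ to 3′, and capitals mark the dinucleotide CG.
Hoxb8 (chr11:96281805-96281904, plus strand): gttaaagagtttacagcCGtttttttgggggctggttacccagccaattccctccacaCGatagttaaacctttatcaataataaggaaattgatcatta
Hoxd8 (chr2:74704515-74704614, plus strand): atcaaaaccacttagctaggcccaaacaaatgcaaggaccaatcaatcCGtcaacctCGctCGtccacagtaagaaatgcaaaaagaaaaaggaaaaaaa
Hoxd13 (chr2:74668125-74668224, plus strand): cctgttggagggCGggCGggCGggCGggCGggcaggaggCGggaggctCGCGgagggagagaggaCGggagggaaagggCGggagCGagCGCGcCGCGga
Within these 100 bases Hoxb8 held 2 CG, Hoxd8 3 and Hoxd13 15. RefSeq windows, of 250 bases before the start and 50 after it, were matched for 22 of the 39 genes and gave 24 windows. Their median was 14.5 CG, against 7 over all 32851 promoter windows. The 15 windows of Hox genes that passed the filter had a median of 13 CG (4 to 29) and the 9 windows of those that did not had a median of 25 (4 to 45). The ranges overlap.

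Expressed as shares of the Hox TPM, the middle of the clusters dominated. Paralogue groups 4 to 8 held 56.7 ± 1.79% (SD, n = 6), groups 1 to 3 held 9.70 ± 0.907%, group 9 held 11.5 ± 0.906%, group 10 held 16.9 ± 2.38% and groups 11 to 13 held 5.25 ± 0.477%. By cluster, C held 34.6 ± 3.99%, A 30.7 ± 1.78%, B 20.3 ± 4.10% and D 14.3 ± 1.82%. By the mean over the 6 libraries, the leading gene of 11 of the 13 paralogue groups came from cluster A, C or D, and that of groups 2 and 3 was Hoxb2 and Hoxb3. Group 10 had the highest mean summed TPM, 11.2 to 16.3 per library, followed by group 8 with 8.89 to 15.8. This order held in the 3 females and male 1, and turned in males 2 and 3, where group 8 had 15.5 and 15.8 and group 10 had 11.2 and 12.9. Without Hoxa10 the share of group 10 fell to 7.40%, so that it rested largely on that gene.

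**Figure D2:**
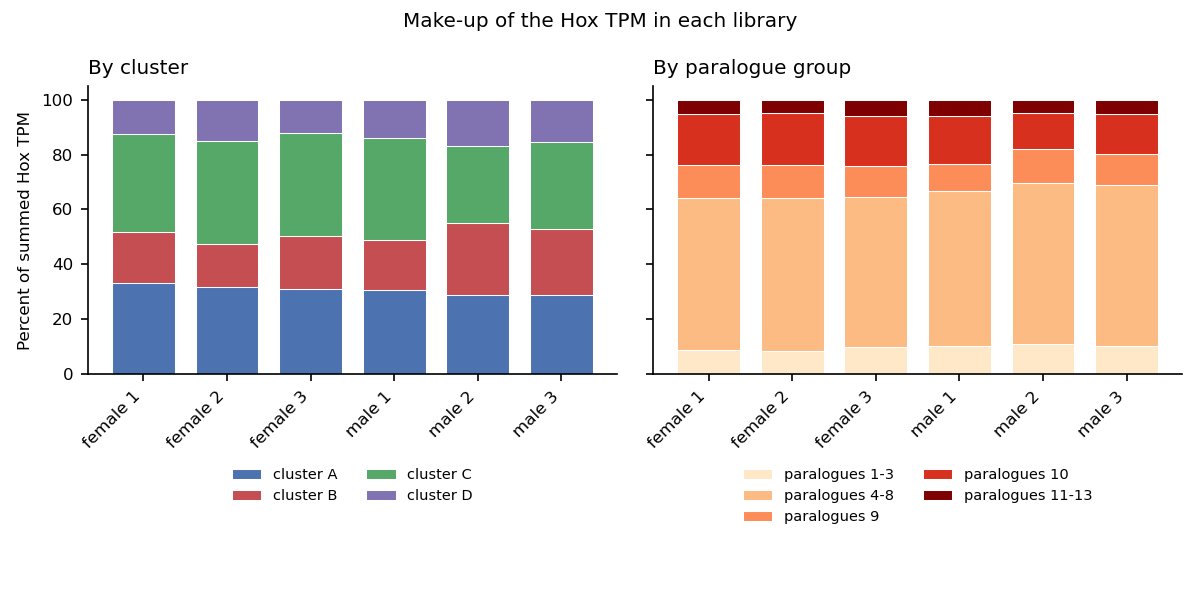
Share of the summed Hox TPM (percent) by cluster and by paralogue group in each of the 6 libraries. Paralogue groups 4 to 8 hold 54.6 to 58.9% in every library, and the share of cluster B is highest in males 2 and 3, at 26.5 and 24.0%.

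Of these 9 shares, which are parts of 1 sum, 4 did not overlap between the sexes. Group 10 held 18.6, 18.9 and 18.4% in females and 17.5, 13.1 and 14.7% in males. Groups 1 to 3 held 8.70, 8.52 and 9.77% in females and 10.2, 10.8 and 10.2% in males. Groups 4 to 8 held 54.6 to 55.7% in females and 56.6 to 58.9% in males, and cluster A 31.1 to 33.3% in females and 28.6 to 30.6% in males. The mean paralogue number weighted by TPM was 7.12 ± 0.0237 in females and 6.94 ± 0.0444 in males (SD, n = 3), a description with no test. Cluster B held 18.4, 15.5 and 19.1% in females and 18.4, 26.5 and 24.0% in males, so that male 1 lay within the female range.

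Between the sexes, Hoxb5 and Hoxb8 were higher in males and no Hox gene was higher in females. The study had already named Hoxb2, Hoxb5, Hoxb8 and Hoxb3os among the genes raised after axotomy in males. That contrast was with sham nerve and not between the sexes, and Hoxb2 was not called here. The threshold was an adjusted p of 0.1 in the quasi-likelihood test of edgeR, adjusted by Benjamini-Hochberg over all genes tested. The 2 genes of 28 compare with 3.81% of all 18424 genes called higher in males, and the 0 of 28 with 1.46% called higher in females; in either direction 971 genes, 5.27%, passed. Of the Hox genes, 3 had an unadjusted p under 0.05, each with a positive value, where 20.7% of all genes did. DESeq2 called 3 Hox genes higher in males, against 7.64% of all genes, and limma-voom called Hoxb5, against 3.54%. Neither tool called a Hox gene higher in females. CPM did not overlap between the sexes for 5 Hox genes, 4 with males above and 1 with females above (Hoxc9), against 13.9% and 11.5% of all genes. These counts are near the background and do not set the Hox genes apart. The log2 fold change, male minus female, was positive for 20 of the 28, against 46.8% of all genes tested, with a median of 0.20 against -0.03.

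**Figure D3:**
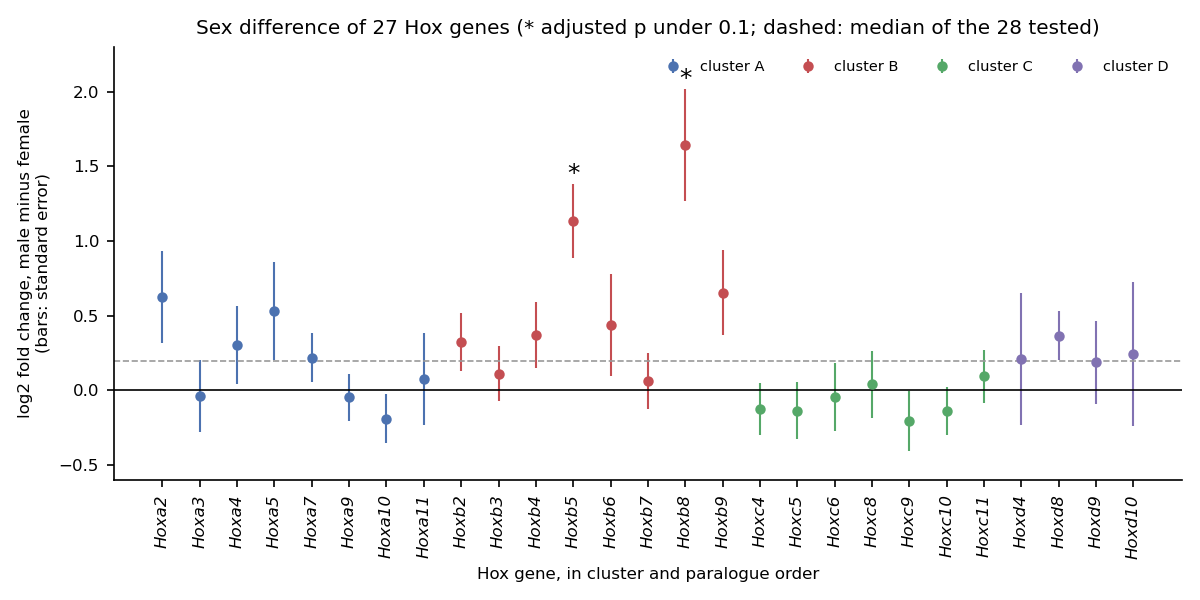
Log2 fold change (male minus female) with its standard error for 27 Hox genes, in cluster and paralogue order, with the median of 0.20 over the 28 tested as a dashed line. Hoxb5 and Hoxb8 carry a star for an adjusted p under 0.1, and 22 genes lie within 0.5 of 0.

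Hoxb8 (ENSMUSG00000056648.6, chromosome 11, 96172731 to 96176160, plus strand) is known from spinal cord and sensory circuits and from blood progenitors. Its level was 0.761, 0.886 and 0.874 CPM in females, from 39 to 55 counts, and 1.31, 3.28 and 3.31 CPM in males, from 88 to 185 counts. Males 2 and 3 were high, male 1 lay closer to the females, and the groups did not overlap. The log2 fold change was 1.64 ± 0.38 (SE), with an adjusted p of 0.0777 by edgeR. The adjusted p rose above the threshold without female 1 (0.256), female 2 (0.165), male 2 (0.128) or male 3 (0.260), and with limma-voom (0.137) or an offset for transcript length (0.111), while without male 1 it was 0.0247 and the log2 fold change 1.97. With DESeq2 the adjusted p was 0.00160. The log2 fold change by edgeR was 1.57 without female 1 and 1.44 without male 3.

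Hoxb5 (ENSMUSG00000038700.5, chromosome 11, 96194162 to 96196947, plus strand) is known for its part in neural crest cells of the gut. Its level was 0.839, 0.762 and 0.938 CPM in females, from 43 to 59 counts, and 1.75, 1.58 and 2.26 CPM in males, from 89 to 118 counts. Every male library lay above every female library. The log2 fold change was 1.13 ± 0.25 (SE), with an adjusted p of 0.0710 by edgeR. The call was lost without female 1 (0.230), female 2 (0.173), male 1 (0.122) or male 3 (0.268). Its log2 fold change was 1.13 without female 1 and 0.97 without male 3. The share of its TPM from the coding transcript was 73.3, 68.0 and 87.2% in females and 92.6, 89.9 and 93.5% in males, and with coding transcripts alone the log2 fold change was 1.53 (adjusted p = 0.0698).

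The other 26 tested Hox genes had adjusted p of up to 0.944. Among them, Hoxb9 differed by 0.65 ± 0.28 (adjusted p = 0.248) and Hoxd8 by 0.37 ± 0.17 (adjusted p = 0.265).

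**Figure D4:**
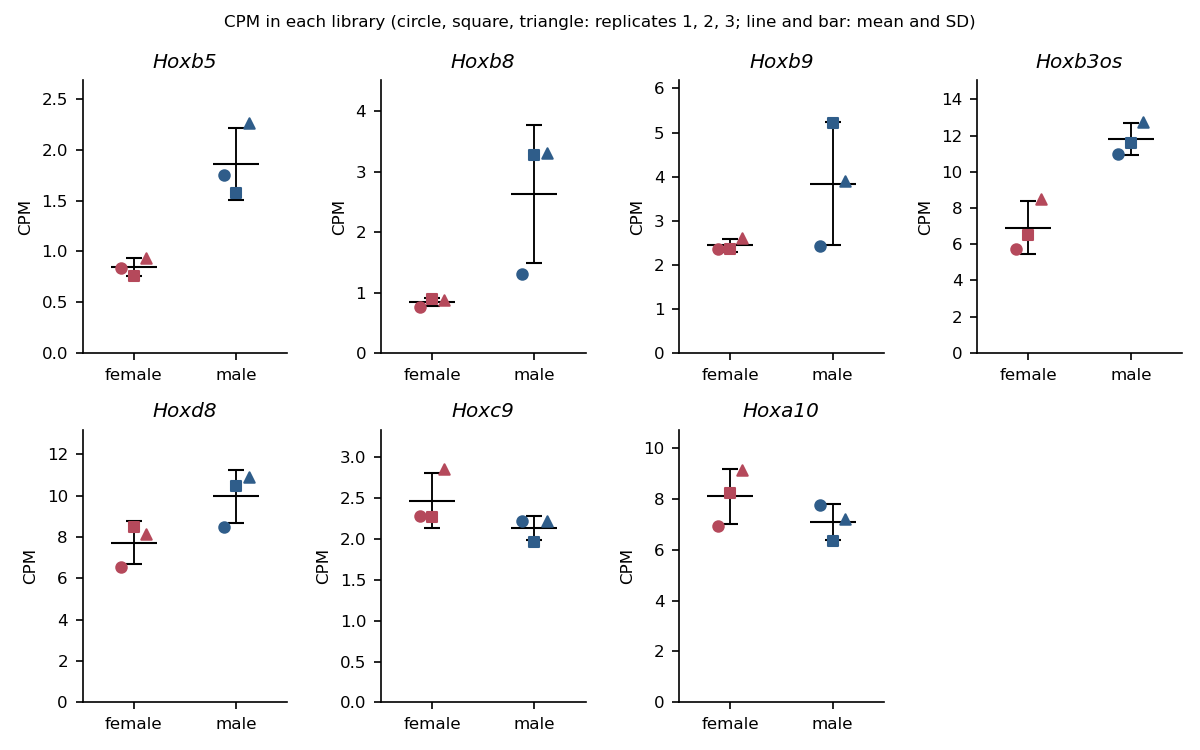
CPM of 6 Hox genes and the antisense RNA Hoxb3os in each library, with the mean and SD of 3 libraries per sex and axes that start at 0. Hoxb8 in males spans 1.31 to 3.31 CPM with male 1 lowest, while Hoxa10, Hoxb9 and Hoxd8 overlap between the sexes.

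By cluster, all 8 tested HoxB genes had a positive log2 fold change (median 0.40, 0.06 to 1.64), 6 of 9 HoxA genes did (median 0.22), all 4 HoxD genes did (median 0.22, 0.19 to 0.37) and 2 of 7 HoxC genes did (median -0.13, -0.21 to 0.09). In a fit that also held a score of skeletal muscle markers, 7 of 8 HoxB genes were positive. Without female 3 or male 3, 3 of 4 HoxD genes were positive, and on leaving out each library in turn 0 to 3 HoxC genes were. The genes of a cluster lie next to each other and are not independent of each other. Summed over cluster B, the level was 16.0, 15.9 and 18.3 CPM in females and 18.3, 25.9 and 26.0 CPM in males, so that female 3 and male 1 were nearly level. Summed over cluster C, it was 30.0, 36.5 and 36.4 CPM in females and 35.7, 28.6 and 33.1 CPM in males, with overlap. By position, the median log2 fold change was 0.32 over 5 genes of groups 1 to 3, 0.26 over 14 of groups 4 to 8 and 0.08 over 9 of groups 9 to 13.

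Long non-coding RNAs of the Hox clusters were measured beside the coding genes, and 1 of 8 tested was called, higher in males, against 3.81% of all genes. Hoxb3os (ENSMUSG00000084844.4, chromosome 11, 96233787 to 96245517, minus strand) lies antisense to the whole of Hoxb2 and to a part of Hoxb3. It stood at 5.72, 6.54 and 8.52 CPM in females and 11.01, 11.6 and 12.7 CPM in males. The groups did not overlap, and the log2 fold change was 0.77 ± 0.18 with an adjusted p of 0.0797 by edgeR. The call was lost without female 1 (0.246), female 2 (0.177), male 1 (0.127), male 2 (0.116) or male 3 (0.270). Its log2 fold change was 0.64 without female 1 and 0.71 without male 3. The log2 fold changes of the genes on the other strand were 0.32 ± 0.20 for Hoxb2 and 0.11 ± 0.18 for Hoxb3, neither of which passed. Libraries were stranded, but the strand setting of the quantification is not given in the sources used here, so reads of antisense partners may be mixed.

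Of the other non-coding RNAs, Hotair, which lies in the HoxC cluster and is known from posterior and distal sites, stood at 0.488 to 1.13 CPM with a log2 fold change of 0.15 ± 0.38. Hotairm1, of the HoxA cluster, differed by 0.19 ± 0.19. Hottip, the RNA at the distal end of the HoxA cluster beyond Hoxa13, had 0 counts in all 6 libraries. Hoxb5os, which runs antisense from Hoxb5 into Hoxb9, stood at 0.0318 to 0.117 CPM and was not tested.

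Markers of central nervous system glia and neurons were higher in males by their sum, which is a description with no test. The list was chosen with earlier results of these data known. The study had reported some of its genes, Mobp and Mog among them, as raised after axotomy in males. The sum of the 12 listed was 3.12, 5.08 and 4.58 CPM in females and 26.5, 60.7 and 67.5 CPM in males. As for Hoxb8, male 1 was the lowest male, whereas for Hoxb5 it was male 2. Of the 12, 11 passed the filter on low counts, 6 of them with under 10 counts in every female library, so that these passed through the males alone and their calls are not counted here. Mobp and Mog, both of oligodendrocyte myelin, stood at 0.449 to 0.708 CPM and 0 to 0.0318 CPM in females and at 6.32 to 19.4 CPM and 0.949 to 1.64 CPM in males. The astrocyte water channel Aqp4 stood at 0.0195 to 0.0708 CPM in females and 1.45 to 4.60 CPM in males. Their part in the Hox differences was not tested.

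Of 6 tested markers of sensory and motor neurons, 3 were higher in males (3.81% of all genes were), the neurofilament genes Nefl, Nefm and Nefh, and the sum of the 13 listed was 32.3 to 52.8 CPM in females and 64.1 to 92.3 CPM in males. Mnx1, the defining gene of motor neuron identity, was at 0 in every library, and Chat, the acetylcholine synthase, at 0 to 0.0390 CPM. Of 10 Schwann cell markers, 4 were higher in males (3.81% of all genes were), S100b and Prx among them, with a median of 0.71. Skeletal muscle markers summed to 385, 583 and 38.4 CPM in females and 10.4, 7.07 and 662 CPM in males, with male 3 the highest. Of 10 tested, 3 (Myh4, Mybpc2 and Actn3) were called higher in females by edgeR, against 1.46% of all genes. DESeq2 called 3 of the 10 and limma-voom 0. With a muscle score as a covariate, the adjusted p was 0.185 for Hoxb8 and 0.168 for Hoxb5, while their log2 fold changes were 1.77 and 1.27. No marker of fibroblasts (10 tested, median 0.06), endothelial and mural cells (9, median -0.23), immune cells (8, median -0.40) or adipocytes (8, median -1.28) was called by edgeR. In the same order 3, 1, 2 and 2 had an unadjusted p under 0.05, DESeq2 called 2, 0, 2 and 1, and limma-voom 0 of each. All 8 immune and all 8 adipocyte markers had negative values. The part of any of these in the Hox differences was not tested. Without female 1 or male 3, 0 of the Schwann cell, neuron and muscle markers were called.

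**Figure D5:**
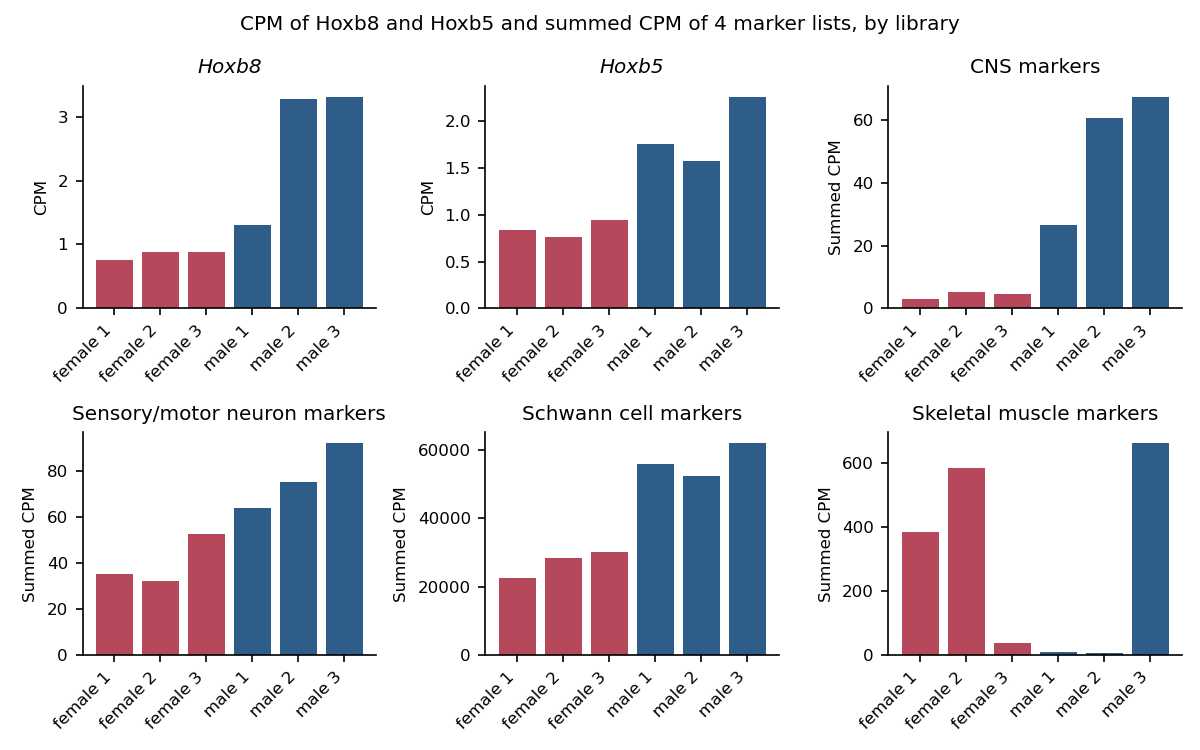
CPM of Hoxb8 and Hoxb5 and summed CPM of markers of the central nervous system, of sensory and motor neurons, of Schwann cells and of skeletal muscle in each library (bars, from 0). Hoxb8 and the central nervous system sum are highest in males 2 and 3 and intermediate in male 1, while muscle is highest in females 1 and 2 and male 3.

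The partners and regulators of Hox genes were measured in the same libraries. The TALE homeodomain proteins, which bind DNA together with Hox proteins, were expressed, with 9 of 9 tested and 0 called (0 also by DESeq2, by limma-voom and at an unadjusted p under 0.05), a median log2 fold change of 0.04 and a summed TPM of 79.8 to 94.7. Pbx2 had the highest mean TPM of the list, 27.4, and Pknox1 stood at 11.4 and Meis3 at 10.8. The sum over the 39 Hox genes, given above, was of the same order.

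Among 18 limb and limb-type factors, 12 were tested and 0 called (median -0.01), also by DESeq2, by limma-voom and at an unadjusted p under 0.05. Prrx1, a gene of limb mesenchyme, had a mean TPM of 20.1, Twist1 9.71, Tbx15 9.65 and Tbx18 5.26. The genes that set hindlimb identity in the embryo were near the floor: Pitx1 had a mean TPM of 0.207 and Tbx4 of 0.0812, and the forelimb gene Tbx5 one of 0.0108. By comparison, the mean TPM of the posterior genes Hoxa10, Hoxc10 and Hoxc11 was 8.19, 5.04 and 3.42. The ParaHox and Cdx genes, relatives outside the clusters that act in the gut and early embryo, had 0 counts for 6 of 6 genes in all libraries.

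Retinoic acid, a vitamin A product, switches on anterior Hox genes in the embryo. Of 19 genes of its pathway, 17 were tested and 0 called by edgeR, with a median of 0.12. At an unadjusted p under 0.05 there were 4, DESeq2 called 3 and limma-voom 0, and the other alternatives called 0 to 3, the 3 without female 3. With the muscle score the median was -0.11. Crabp2, a binding protein, had the highest mean TPM, 129.6, followed by the reductase Dhrs3 with 121 and Aldh1a1, an enzyme that makes retinoic acid, with 87.4. Aldh1a1 stood at 79.4, 113 and 88.1 CPM in females and 166, 119 and 154 CPM in males, a log2 fold change of 0.64 ± 0.17 that missed the threshold (adjusted p = 0.104). The degrading enzymes Cyp26a1 and Cyp26c1 did not pass the filter.

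Polycomb proteins keep Hox genes silent outside their domains and Trithorax proteins keep them active. Of 26 Polycomb genes, 26 were tested and 1 was called, against 5.27% of all genes, which does not set the list apart. It was Cbx6 (chromosome 15, 79708097 to 79718889), a chromodomain subunit that reads the silencing mark. Its log2 fold change was 0.60 ± 0.16 (adjusted p = 0.0983), and the list's median was 0.01. At an unadjusted p under 0.05 there were 6 of the 26, against 20.7% of all genes. DESeq2 called 3 Polycomb genes and limma-voom 0. Of 14 Trithorax and H3K27 demethylase genes, 14 were tested and 1 was called, again near the background, Kdm6a (chromosome X, 18028776 to 18146877), an X-linked demethylase that removes that mark and escapes X inactivation. It stood at 40.6, 49.2 and 35.4 CPM in females and 25.6, 19.9 and 24.0 CPM in males, with a log2 fold change of -0.85 ± 0.15 (adjusted p = 0.0470). Both calls were lost without female 1 (0.286 for Cbx6 and 0.178 for Kdm6a), female 2 (0.150 and 0.109) or male 3 (0.306 and 0.170), and that of Cbx6 without male 1 (0.207). Both were also lost with the replicate block (0.224 and 0.147) and the muscle score (0.221 and 0.225). That of Cbx6 was lost with limma-voom (0.105), library size alone (0.111) and the length offset (0.102). For the Trithorax list the median was -0.16, with 3 of the 14 genes positive and 1 at an unadjusted p under 0.05. DESeq2 and limma-voom each called 1 of its genes, and edgeR without female 3 called 4 higher in females. The lists' summed levels were 867 to 946 CPM in females and 938 to 1055 CPM in males for Polycomb, and 663 to 797 CPM in females and 615 to 690 CPM in males for Trithorax.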

How the data were processed

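Each library came from 2 mice, with poly-A RNA in stranded paired-end libraries. The submitters' processing notes name Trimmomatic 0.39, Salmon 1.5.2 and MultiQC 1.9. The authors deposited Salmon's estimated counts, which are not normalised, and TPM, which corrects for effective length. Gene sums of estimated counts were rounded, filtered with filterByExpr, scaled by TMM and tested in edgeR 4.0.16 (R 4.3.3) by the quasi-likelihood test with sex as the only term, adjusted over 18424 genes; SE is the size of the log2 fold change over the square root of F. CPM is per TMM-scaled library. Libraries were grouped by labelled sex. Alternatives were DESeq2 1.42.0, limma-voom (limma 3.58.1), other scaling and filters, a length offset, coding transcripts alone, an adjusted p under 0.05, a muscle score, the replicate block and leaving out single libraries.

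Members and all 14 lists (174 genes) were chosen with earlier results of these data known. Hox genes called, at an unadjusted p under 0.05 or among the 12 highest by TPM were given in every library; of each list, called genes and up to 4 others by TPM were named, besides defining markers at or near 0 and untested limb-type and retinoic acid genes, chosen after their values were seen. Coordinates and homeobox bases are from GENCODE M39 (GRCm39), in which all 39 Hox genes were found by identifier; the study names an earlier release. Some genes and sequences are not reported here. The fit was tested on simulated data. No library was a copy of another (chi-square per degree of freedom 44.7 to 134.1 within a sex).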

Additional observations from a re-analysis of the deposited data

How the results depend on the processing

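The log2 fold changes of Hoxb5, Hoxb8, Hoxb9, Hoxd8 and Hoxb3os stayed positive under every alternative that tested them. Of the 28 tested Hox genes, 10 had the other sign under some alternative (Hoxa3, Hoxa9, Hoxa11, Hoxb7, Hoxc5, Hoxc6, Hoxc8, Hoxc11, Hoxd4 and Hoxd10), none of them called by edgeR; Hoxc8, for instance, went from 0.04 to -0.21 with coding transcripts alone. The count of 2 Hox genes higher in males was 1 with limma-voom, 1 with the length offset, 0 with the muscle score, 0 at an adjusted p under 0.05, and 0 to 2 when each library was left out. The count of 0 higher in females was 0 to 1 on leaving out libraries; the 1 was Hoxa6 without female 3 (adjusted p = 0.0976). Of all genes, 971 passed, against 2436 with DESeq2, 1617 without the filter, 413 with the muscle score, 284 at an adjusted p under 0.05, and 1 to 2612 on leaving out libraries (1 without female 1, 327 without female 2, 2612 without female 3 and 7 without male 3).

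No pairing by replicate number could be read from the data: deviations of same-numbered libraries correlated at -0.038, -0.300 and -0.295. With the replicate block 0 Hox genes and 56 genes in all passed, and the adjusted p was 0.153 for Hoxb8, 0.171 for Hoxb5 and 0.146 for Hoxb3os.

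Of the shares of Hox TPM, groups 4 to 8 held 54.2% by CPM, 59.5% with coding transcripts alone and 63.1% without Hoxa10; group 9 held 14.2% by CPM and 12.8% without Hoxa10; group 10 held 12.0% with coding transcripts alone and 7.40% without Hoxa10; groups 11 to 13 held 6.05, 5.97 and 5.86% under these 3 settings; groups 1 to 3 held 10.8% without Hoxa10. Cluster A held 26.5% with coding transcripts alone and 22.8% without Hoxa10, and cluster C held 38.7% without it. The cause was not tested beyond what each setting leaves out. The standard error of the 28 log2 fold changes was 0.16 to 0.48, with a median of 0.23.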
